A study of Drosophila melanogaster with 24 samples.

Results

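Of 16637 transcripts measured in whole female Drosophila melanogaster, 62 were raised by dietary restriction in flies without the drug RU486 and were raised less than 50% as much, on the log2 scale, in flies given it. They were chosen from the deposited log2 brightness values by 4 conditions. The transcript had to average above 8 log2 over the 24 arrays. The DR minus AL difference of group medians without RU486, called a below, had to be at least 1 log2. The same difference with RU486, called b, had to be below 0.5 of a and below 1.3 log2. The 62 members made up 6.08% of the 1019 transcripts that met the first 2 conditions, and the other 957 of these serve as the comparison throughout.

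The 4 groups were DR with RU486, DR without RU486, AL with RU486 and AL without RU486, with 6 pools of about 35 female flies each. All flies were 13 days old. DR stands for dietary restriction, which the labels give as lasting 10 days. AL is not expanded in the labels and names the diet that DR is set against. Every group, the flies without RU486 included, carried the same strain, +/+; Act5c-GS-Gal4/+; P{GD3482}v8105 /+. It holds an Act5c-driven GeneSwitch driver, which acts throughout the body, and an RNAi insertion that the driver switches on. Each array held Cy3-labelled cDNA from the total RNA of 1 pool.

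GeneSwitch is a form of the yeast activator Gal4 that works only when RU486 is bound to it, so feeding the drug starts transcription of the RNAi hairpin. From general knowledge and not from the labels, the insertion v8105 targets ACC, acetyl-CoA carboxylase, which makes malonyl-CoA in the committed step of fatty acid synthesis. Malonyl-CoA also restrains the entry of fatty acids into mitochondria, so the enzyme stands between fat storage and fat burning. Restriction of food is known to change lipid turnover in flies and to extend their lifespan. Drug and active RNAi cannot be told apart in these groups, because no group received RU486 without the insertion.

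No member could be given a gene name. The transcripts carry FlyBase transcript numbers, and the RefSeq gene table of assembly Release 6 paired 16 of them with 1 symbol and 28 with several, 0 of which were members. The gene lists drawn up for fat metabolism, digestive enzymes, immunity and muscle, and the markers of fly tissues, had 1 gene in all that is named on the array, of the fat list, and 0 members. The labelled tissue could therefore not be checked against markers, and the knockdown of ACC was not analysed here. Members are described by identifier, and no role is given to any.

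The median log2 value of an array, taken over its probes, ranged from 9.26 to 9.47. Pool 1 of AL with RU486 and pool 3 of DR with RU486 stood apart from their groups. The SD of transcript deviations from the group was 0.365 log2 in the first (0.110 to 0.140 in its group's remaining pools) and 0.228 in the second (0.119 to 0.159). Median brightness of the random control probes was 7.05 ± 0.04 log2 in DR with RU486, 7.01 ± 0.01 in DR without it, 7.15 ± 0.03 in AL with it and 7.17 ± 0.03 in AL without it (SD, n = 6). The random probes thus ran opposite to the members, being lower on DR and slightly higher in DR pools given RU486 than in those without it. The array median over all transcripts ran the same way as the members between the diets. Its mean was 9.70 log2 in DR without RU486 and 9.67 in DR with it, against 9.58 in both AL groups. The number of members with arrays centred on their medians is given in the last section.

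In the flies without RU486 the members stood at a median of 9.98 log2 on DR, against 8.55 on AL, and in the flies given it at 9.25 log2 on DR, against 8.66 on AL. The median a was 1.14 log2, with a range of 1.00 to 2.52, and the median b was 0.50 log2, with a range of 0.20 to 1.22. These values chose the members and are given as a description. The median b was 43.6% of a, and for 44 of the 62 it was at least 40% of a, so most members lay close under the limit. In the other 957 raised transcripts b had a median of 78.1% of a, and 74 of them lay between 50% and 60%. In 52 of them b was larger than a. The 62 are therefore the low end of a continuous spread, and b was above 0 in all 62. In RNA of whole flies, a lower level per pool from fewer cells of a type and one from less RNA per cell cannot be told apart.

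**Figure D1:**
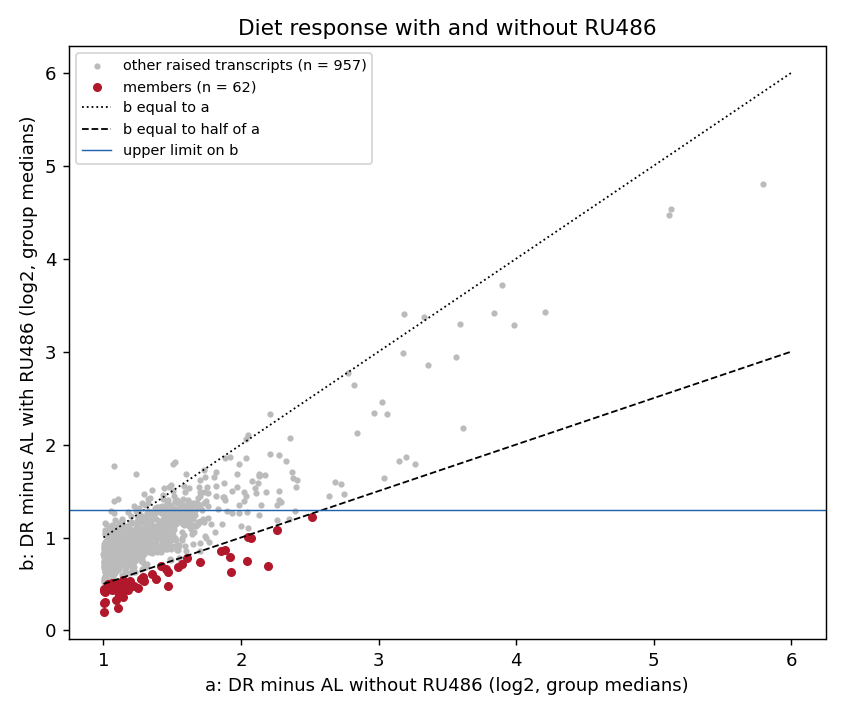
The diet response with RU486 (vertical axis, log2) is set against that without RU486 (horizontal axis, log2) for the 62 members and the other 957 transcripts with a mean above 8 and a at least 1, as differences of group medians. Members lie under the dashed line where b equals 0.5 of a, and no gap separates them from the other raised transcripts.

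At the edges of the rule the values ran on without a step. FBtr0083687 was a member at a mean of 8.005 log2, and FBtr0070612, at 7.992, was not. FBtr0081051 was a member with a at 1.0045 log2, and FBtr0077117, at 0.9999, was not. FBtr0114583 had b at 0.501 log2, just under 0.5 of its a, which is 0.517. FBtr0081069 had b at 0.856 log2 and 0.5 of its a at 0.853, and so fell outside. The limit of 1.3 log2 on b kept out 0 transcripts that met the other conditions, and FBtr0077362, at 1.22, came nearest to it.

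The rule fixes the sum of the fall with RU486 on DR and the rise with RU486 on AL, but not how that sum is split. By group medians all 62 members were lower with RU486 on DR, by a median of −0.57 log2 and a range of −1.53 to −0.14. On AL the median was 0.14 log2 with a range of −0.35 to 0.62, and 51 of 62 were higher with RU486. The fall on DR was larger than the rise on AL for 58 of the 62. It made up a median of 81.2% of the difference between a and b. In the other raised transcripts the median RU486 difference was −0.27 log2 on DR and 0.00 on AL, and 912 of 957 were lower on DR. Over all transcripts 7852 of 16637 were lower on DR. The raised transcripts were picked for a high DR without RU486 value and the members also for a low b, so the rule itself favours lower values with RU486 on DR, and nothing is read from these counts.

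**Figure D2:**
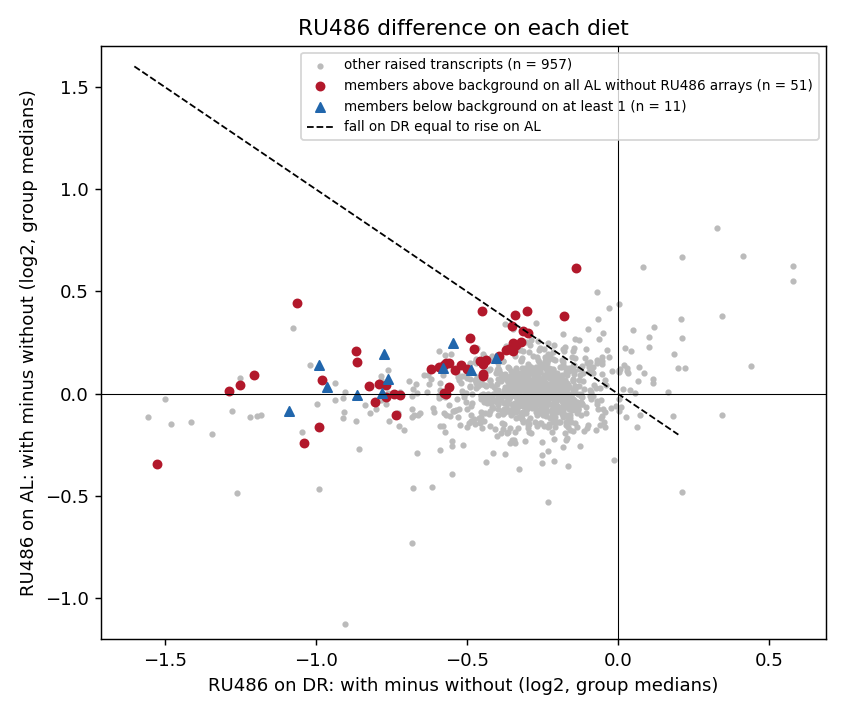
The RU486 difference on DR (horizontal axis, log2) and on AL (vertical axis, log2), as differences of group medians, for the members and the other raised transcripts. All 62 members lie left of 0 on DR, between −1.53 and −0.14, and 4 lie above the dashed line, where the rise on AL exceeds the fall on DR.

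In limma, with p-values adjusted over all transcripts at 0.05, 52 of 62 members passed as lower with RU486 on DR, where 7.78% of all transcripts did, and 0 passed as higher, against 5.95% of all. Of the other raised transcripts, 403 of 957 passed. On AL, 3 of 62 members passed as higher, against 0.289% of all transcripts. The interaction passed as lower for 49 of 62, against 3.19% of all, and as higher for 0, against 3.33%. For diet without RU486 all 62 passed as higher, against 29.7% of all, and for diet with RU486 the count was 52, against 24.5%. All these contrasts use arrays that the rule used, so the counts describe the chosen transcripts and nothing is read from them. In DR with RU486 all 6 pools lay below all 6 pools of DR without it for 25 of 62 members, against 2.49% of all transcripts. In DR with RU486 all 6 pools lay above all 6 of AL with RU486 for 16 of 62, against 14.1% of all. Without RU486 the same held between DR and AL for all 62, against 24% of all. Among the other raised transcripts these counts were, in the same order, 96, 737 and 955 of 957. The rule used these arrays as well, so the counts without overlap are also only a description.

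The plot of the members by array shows the common shape. By group medians DR without RU486 was the highest group for all 62, DR with RU486 came next, and both AL groups were lower. The rule fixes DR without RU486 above AL without it and limits b from above. It favours this order without fixing the places of the other groups, so the order is only a description. The colours also differ between pools of 1 group, and more so on DR than on AL. The SD among pools had a median over the members of 0.34 log2 in DR with RU486, 0.29 in DR without it, 0.17 in AL with it and 0.14 in AL without it. In the other raised transcripts these medians were 0.21, 0.16, 0.19 and 0.13 log2.

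**Figure D3:**
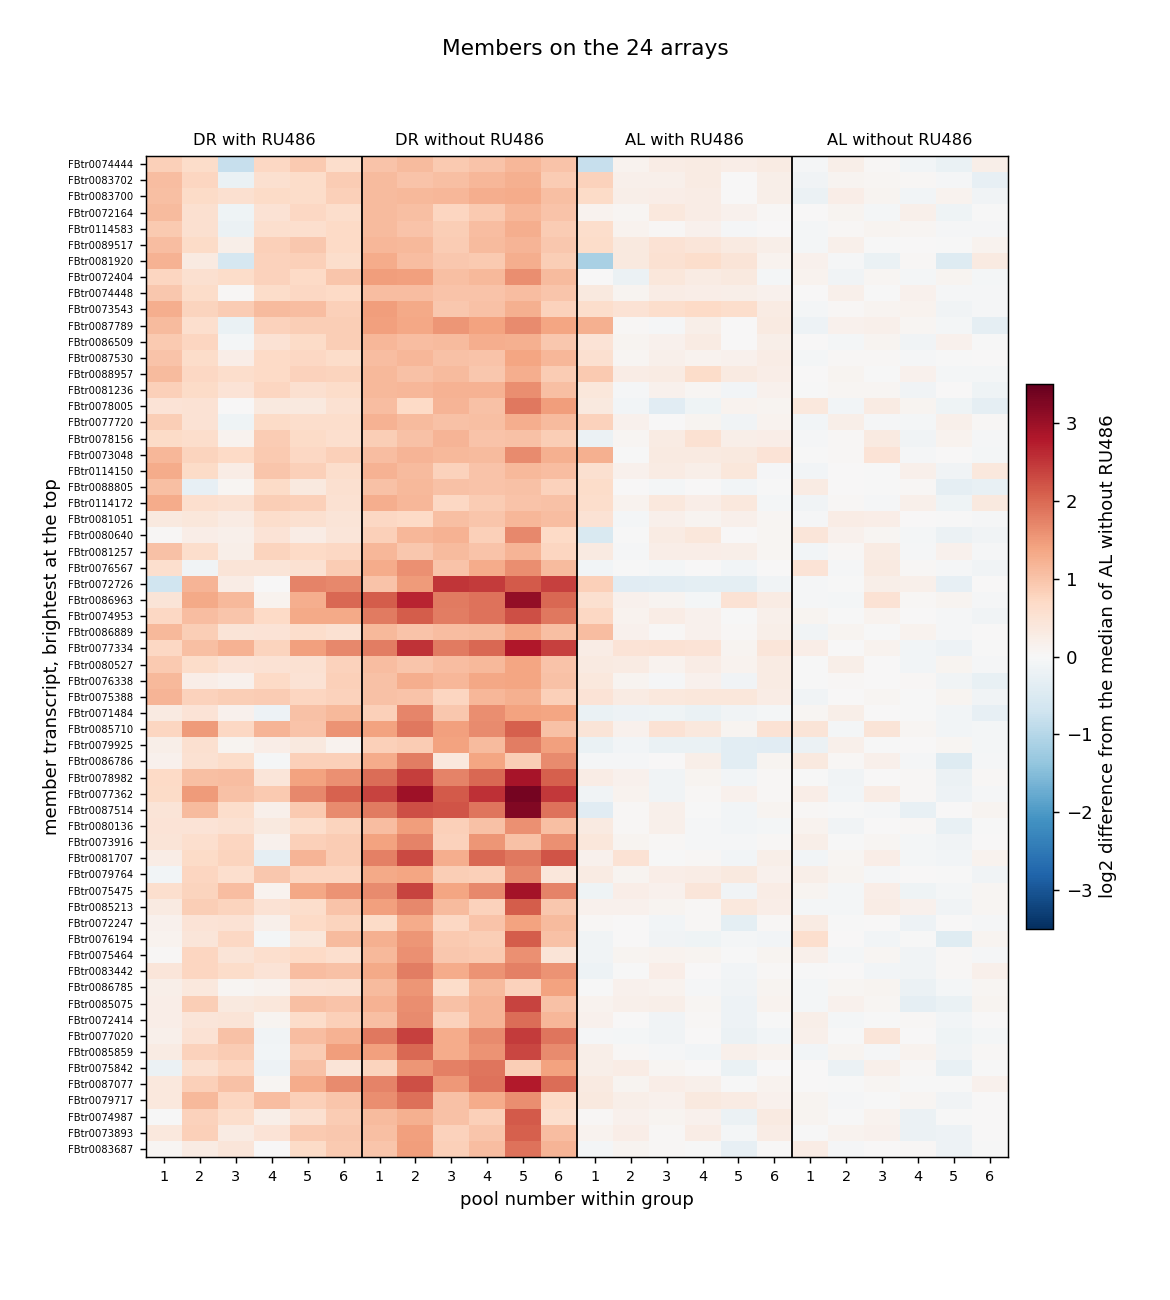
Each row is 1 of the 62 members, ordered by mean brightness, and each column is 1 array, grouped from left as DR with RU486, DR without RU486, AL with RU486 and AL without RU486. Colour is the log2 difference from the member's median in AL without RU486, and the darkest red cells lie in DR without RU486, mostly in pools 2 and 5.

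FBtr0077334 had the largest difference between a and b, at 1.51 log2. Its lowest, median and highest values were 8.92, 9.34 and 9.89 log2 in DR with RU486, against 9.99, 10.41 and 11.02 in DR without it. They were 8.29, 8.65 and 8.71 log2 in AL with RU486, against 8.03, 8.21 and 8.44 in AL without it. The DR groups did not overlap, and both lay apart from the AL group of the same treatment. The mean difference with RU486 on DR was −1.08 ± 0.16 log2 (SE), and on AL it was 0.35 ± 0.16, which did not pass in limma (adjusted p = 0.539). Each of its 8 probes had b below a, with a from 1.58 to 2.94 log2 and b from 0.04 to 1.59.

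FBtr0087514 had the next largest difference between a and b, almost all of it on DR. It ran over 8.07, 8.67 and 9.55 log2 (lowest, median, highest) in DR with RU486, against 9.73, 9.95 and 11.16 in DR without it. The AL groups were nearly level, with medians of 7.92 log2 with RU486, where 5 of 6 arrays were above background, and 7.91 without. On DR all pools with RU486 lay below all pools without it. The mean difference was −1.40 ± 0.21 log2 (SE), or 2.64-fold. Pool 5 of DR without RU486, at 11.16 log2, stood well above the other 5, which reached 10.17. FBtr0077362 had the largest a, at 2.52 log2, with medians of 10.17 log2 in DR without RU486 and 7.65 in AL without it. With RU486 its medians were 8.92 log2 on DR and 7.69 on AL, which gives b as 1.22 log2. In AL with RU486 only 4 of its 6 values exceeded the random-probe background, so its level there is partly a bound.

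FBtr0080640 and FBtr0086785 had the lowest b, at 0.20 and 0.24 log2. For FBtr0080640 the pools of DR with RU486 lay between 9.26 and 9.69 log2 with a median of 9.45, and those of AL with RU486 between 8.68 and 9.60 with a median of 9.25. These groups overlapped, and the diet response with RU486 did not pass in limma over all transcripts (0.23 ± 0.15 log2, SE, adjusted p = 0.21). Without RU486 its pools lay between 9.90 and 10.88 log2 on DR and between 9.01 and 9.64 on AL, with no overlap. For FBtr0086785 the median was 8.22 log2 in DR with RU486 and 7.97 in AL with RU486, and without RU486 it was 9.04 on DR and 7.94 on AL. Its 8 probes were uneven, with a from −0.07 to 2.60 log2, and 7 of them had b below a. FBtr0086786, which carries the next identifier number and is also a member, had a at 1.35 and b at 0.60 log2.

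FBtr0081236 had the most even pools in DR with RU486, with an SD of 0.12 log2. It ran over 10.16, 10.32 and 10.49 log2 there, against 10.73, 10.86 and 11.28 in DR without RU486. In AL with RU486 the median was 9.78 log2, against 9.66 in AL without it. On DR the groups did not overlap, and in DR with RU486 all pools lay above those of AL with RU486. FBtr0081051, the next most even at an SD of 0.13 log2, had a median of 9.65 log2 in DR with RU486, against 10.22 in DR without it.

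FBtr0073543 differed from most members in where RU486 moved it. It had the largest rise on AL, with 10.17, 10.50 and 10.58 log2 (lowest, median, highest) with RU486, against 9.76, 9.88 and 10.00 without it. On DR it had 10.67, 10.87 and 11.17 log2 with RU486, against 10.70, 11.01 and 11.34 without it. The AL groups did not overlap, while the DR groups did. The mean RU486 difference was 0.55 ± 0.10 log2 on AL and −0.14 ± 0.10 on DR (SE), and the fall on DR made up 18.5% of the difference between a and b. FBtr0075388 and FBtr0088957, picked after their values were seen, were the only other members that passed as higher with RU486 on AL. Their mean differences on AL were 0.37 ± 0.08 and 0.43 ± 0.10 log2, and on DR −0.12 ± 0.08 and −0.27 ± 0.10 (SE). The count of 3 became 1 without AL with RU486 pool 4, without AL without RU486 pool 1 or without AL without RU486 pool 6, and it ranged from 1 to 4 over the omissions of 1 array.

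**Figure D4:**
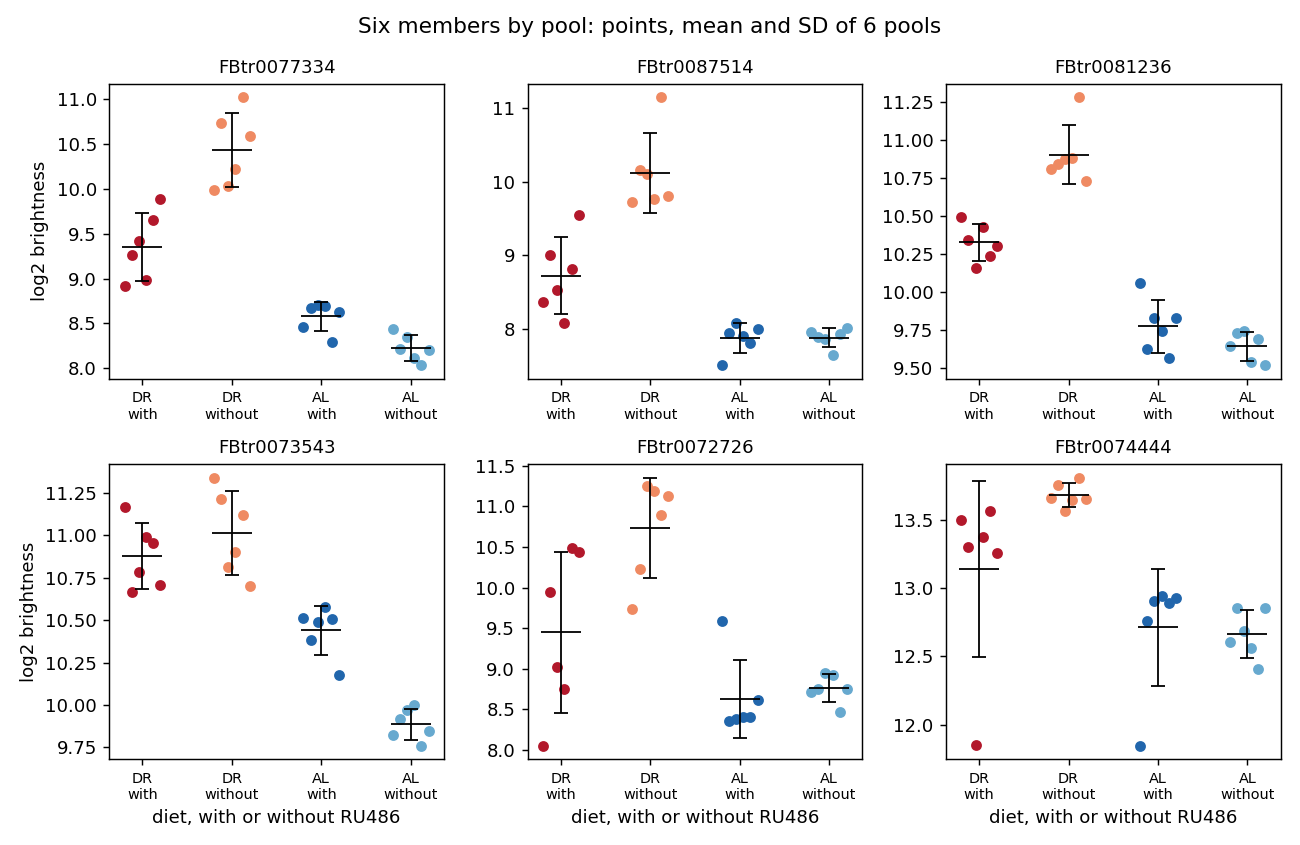
Log2 brightness of 6 members in each pool (points), with the mean and SD of the 6 pools (bars), for DR with, DR without, AL with and AL without RU486. FBtr0077334, FBtr0087514, FBtr0081236 and, by a very small margin, FBtr0074444 are lower in every DR pool with RU486 than in any DR pool without it. FBtr0073543 differs mainly between the AL groups, and FBtr0072726 and FBtr0074444 have single pools far from the rest.

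FBtr0072726 had the largest fall with RU486 on DR by medians, at −1.53 log2, and also the largest spread there. Its pools of DR with RU486 ran from 8.05 to 10.49 log2 with a median of 9.49 and an SD of 0.99. In DR without RU486 they ran from 9.74 to 11.25 log2 with a median of 11.01. The DR groups overlapped widely. AL with RU486 pool 1, at 9.59 log2, lay apart from the other 5 pools, at 8.36 to 8.62. Without this array and DR with RU486 pool 3, b was 1.55 log2 or 68.6% of a, and FBtr0072726 no longer met the rule. FBtr0086963 had the next largest spread, an SD of 0.67 log2 among pools between 8.53 and 10.42 in DR with RU486, against a range of 10.24 to 11.48 in DR without it.

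The brightest members were FBtr0074444, at a mean of 13.05 log2, and FBtr0083702, at 12.25. FBtr0074444 ran over 11.85, 13.33 and 13.56 log2 in DR with RU486, against 13.57, 13.66 and 13.81 in DR without it. Its low value of 11.85 was DR with RU486 pool 3, and AL with RU486 pool 1, at 11.84 log2, was also far below the other 5 pools of its group, at 12.76 to 12.94. The mean RU486 difference on DR was −0.54 ± 0.21 log2 (SE) with all arrays, which did not pass in limma (adjusted p = 0.0818). By medians it was −0.32 log2 with all arrays and −0.28 without these 2. Without them b was 46.0% of a, still inside the rule. FBtr0083702 ran over 11.53, 12.46 and 12.84 log2 in DR with RU486, against 12.64, 12.86 and 13.01 in DR without it, and without the 2 arrays its b was 53.7% of a, outside the rule. FBtr0077362, at 57.3%, FBtr0086963, at 54.0%, and FBtr0114583, at 53.5%, also fell outside. In all, 43 of the 62 met the rule without the 2 arrays.

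Among the 62, 51 were above the background of the random probes on all 6 arrays of AL without RU486, and 11 were below it on at least 1. In AL with RU486, 12 members were below background on at least 1 array, among them FBtr0077362 and FBtr0087514, which are not of the 11. In all, 13 members were below it on at least 1 AL array, where their level is only an upper bound. FBtr0087077 and FBtr0079717, picked after their values were seen, were above background on 0 of 6 arrays of AL without RU486. In AL with RU486 they were above it on 0 and 5 of 6. FBtr0087077 was at least 3.36-fold higher in DR without RU486, at a mean of 9.32 log2, than in AL without it, with the AL arrays set to their background. FBtr0079717 was at least 2.34-fold higher, at a mean of 8.80 log2 in DR without RU486. The dim 11 fell by a median of 0.77 log2 with RU486 on DR, against a fall of 0.56 log2 for the other 51. Transcripts this dim on AL could reach the brightness minimum of 8 log2 only through high DR values. Their median a was 1.47 log2, against 1.13 for the other 51, so nothing is read from the larger fall. In DR with RU486, 59 of 62 members were above background on all 6 arrays. On all 24 arrays 49 of 62 members (79.0%) were above it, fewer than the 92.9% of the other raised transcripts. Over all transcripts, which include those under the brightness minimum of 8 log2, the share was 73.7%.

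The probes of a member mostly moved together. The members had 8 probes each, 496 in all, and 486 of these had b below a. For 52 of 62 members all 8 probes did so, and no member had fewer than 7. On DR, 485 of 496 probes were lower with RU486. The mean over the probes chose the members, so this describes how evenly a transcript's probes share in it.

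Deviations of single pools from their group median, which the rule did not use as such, showed that the members did not vary as 1 block. Over the 1891 pairs of members, Pearson's r of these deviations across the 24 arrays had a median of 0.20, with 454 pairs above 0.5 and 487 below 0. All correlations here share arrays and so depth and labelling, and they are given as a description. The most alike pair was FBtr0077334 and FBtr0083687, at 0.95. Of 4 pairs of members whose identifier numbers lie within 10 of each other, FBtr0086785 and FBtr0086786 had an r of 0.76, FBtr0083700 and FBtr0083702 0.74, FBtr0074444 and FBtr0074448 0.64, and FBtr0072404 and FBtr0072414 0.39.

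With an r above 0.7, 14 members followed FBtr0077334 and 11 followed FBtr0083702, which makes sets of 15 and 12 with the leading transcripts. Both sets were drawn after the data were seen. The leading transcripts had an r of −0.09 with each other, so no member could have an r above 0.7 with both. That the sets shared 0 members thus follows from the choice of leading transcripts and limit. In neither set were 35 members. The first set was dim, with a median brightness of 8.31 log2, and 8 of its 15 were among the 11 near background on AL. Its median a was 1.61 log2 and its median RU486 difference −0.78 log2 on DR and 0.04 on AL. The second set was brighter, with a median of 10.41 log2, a median a of 1.11 and RU486 differences of −0.44 on DR and 0.18 on AL.

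The sets differed in most of the pools where they were high or low, and shared pool 5 of DR without RU486. Members joined a set by following its leading transcript over these same arrays. Agreement within a set in such pools therefore follows largely from that choice, and the counts below are only a description. In DR with RU486 all 15 of the first set were above the group median in pool 6, by a median of 0.54 log2, and all 15 below it in pools 1 and 4, by −0.34 and −0.36. In DR without RU486 all 15 were above it in pools 5 and 2, by 0.83 and 0.38 log2. In pool 5 all 12 of the second set were above it too, by a median of 0.16 log2. On AL the largest median deviation of the first set in any pool was −0.18 log2. The second set was higher in pool 1 of AL with RU486, by 0.43 log2 in 12 of 12 members, and lower in pool 3 of DR with RU486, by −0.60 log2 in 12 of 12. These are the 2 arrays that stood apart over all transcripts, and their part in the blunting of this set was not tested beyond the values without them.

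**Figure D5:**
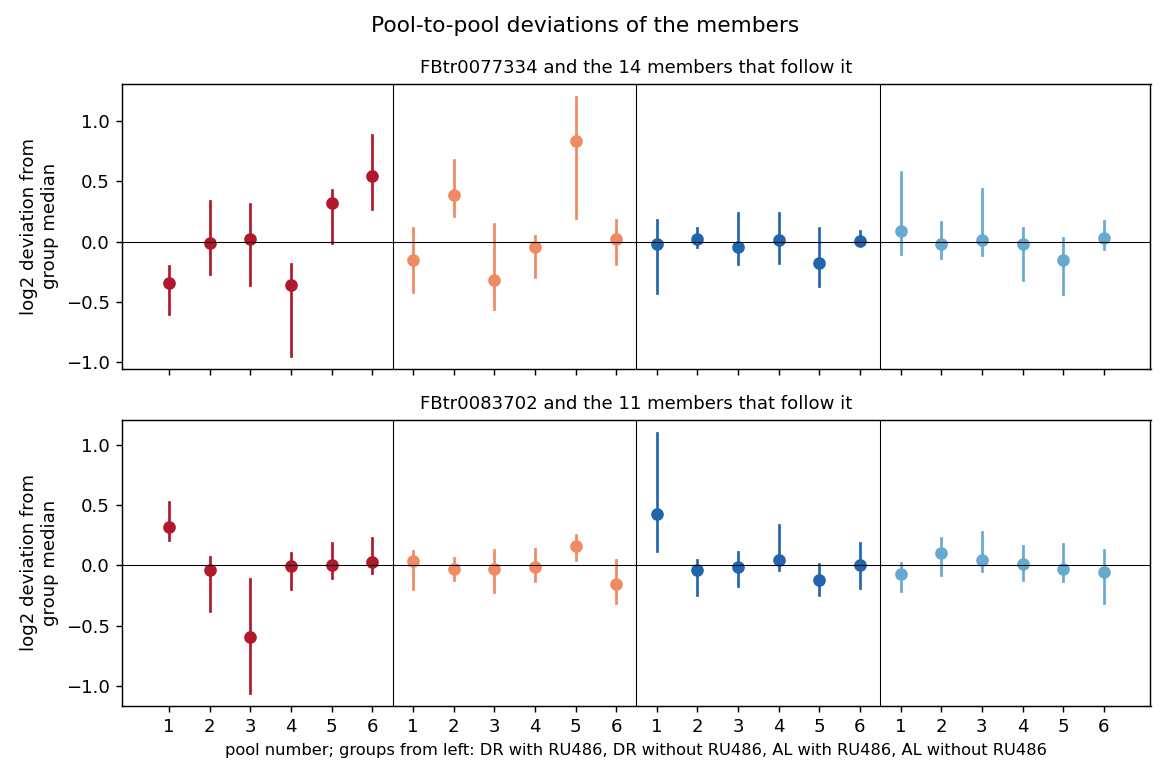
Log2 deviation of each pool from its group median (points, median over the set; lines, lowest to highest member) for FBtr0077334 with the 14 members that follow it and FBtr0083702 with the 11 that follow it. The first set spreads over the DR pools of both treatments and stays near 0 on AL, and the second departs mainly in DR with RU486 pools 1 and 3 and AL with RU486 pool 1.

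Pool 5 of DR without RU486 was the highest of its 6 pools for 45 of 62 members (72.6%), against 573 of 957 other raised transcripts (59.9%). Its median deviation from the group was 0.27 log2 over the members and 0.17 over the others. In DR with RU486, pool 6 was the highest for 41.9% of members and 19.1% of the others, and pool 1 for 37.1% and 57.5%. Without pool 5 of DR without RU486, 44 of the 62 still met the rule, the fewest for any single array. Over the 24 such omissions 28 members met it every time, and no member met it fewer than 15 times. FBtr0077334, FBtr0087514, FBtr0086785, FBtr0073543 and FBtr0081236 were among the 28, but FBtr0081236 did not meet the rule without the 2 arrays that stood apart (b at 50.5% of a).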

How the data were processed

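Gene expression was measured on 1-colour NimbleGen arrays in 24 pools. The deposited table holds log2 values per probe, which the authors had already processed; the submitters' processing notes name limma without a version, and the background correction and normalization are not given in the sources used here. That the values are on a log2 scale was judged from their range, 6.09 to 16.51. Nothing was missing, and no 2 arrays were identical.

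The 132999 transcript probes were averaged per transcript, as the shared first 11 characters of the probe name, into 16637 transcripts, 16617 of them with 8 probes. The background of an array was the 95th percentile of 511 means of 8 random probes. limma 3.58.1 in R 4.3.3 (lmFit, eBayes) was fitted with 1 mean per group over all 24 arrays, with Benjamini-Hochberg adjustment over all transcripts at 0.05, after the code was tested on simulated data. Folds marked "at least" set the AL arrays to their background. The labels do not say that pools came from separate cultures, so p-values measure the spread between pools, whose number limits the precision.

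The members, the gene lists and the tests were chosen with earlier results of these data known. At most 2 identifiers were named for each of these: largest difference between a and b, lowest b, brightest, largest a, largest fall on DR, largest rise on AL, largest and smallest SD in DR with RU486, most alike pair, and the nearest transcripts to each limit. Others are said to be picked after their values were seen, as were the pairs with near identifier numbers. Alternatives changed the normalization, the probe summary, the limits of the rule, the arrays and the fit.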

Additional observations from a re-analysis of the deposited data

Results flagged for a closer look

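The 4 groups of each of the 14 named members and of the members' median, 60 groups of 6 pools in all, were searched for a pool far from the other 5. The search found 9, all of them in named members. For a single group chance gives such a pool in about 1 of 20. The groups share arrays, and some members were named for their spread, so the 9 of 60 cannot be set against that rate. Pool 1 of AL with RU486 and pool 3 of DR with RU486, the arrays that stood apart over all transcripts, held 6 of the 9. In AL with RU486 pool 1, FBtr0074444 was at 11.84 log2 (others 12.76 to 12.94), FBtr0083702 at 12.57 (11.78 to 12.07), FBtr0072726 at 9.59 (8.36 to 8.62) and FBtr0114583 at 11.83 (11.19 to 11.38). In DR with RU486 pool 3, FBtr0074444 was at 11.85 log2 (13.25 to 13.56) and FBtr0114583 at 11.03 (11.77 to 12.13). In DR without RU486 pool 5, FBtr0087514 was at 11.16 log2 (9.73 to 10.17) and FBtr0081236 at 11.28 (10.73 to 10.88). In AL without RU486 pool 3, FBtr0086963 was at 8.92 log2 (8.34 to 8.50).

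The diet response with RU486 minus that without it passed limma's interaction test for 12 named members. They were chosen on this difference, so the test adds no independent support. The difference was −1.43 log2 for FBtr0077334, −1.39 for FBtr0087514, −1.39 for FBtr0086963 and −1.31 for FBtr0077362. It was −0.86 log2 for FBtr0086785, −0.80 for FBtr0080640, −0.80 for FBtr0083687 and −0.78 for FBtr0083702. It was −0.71 log2 for FBtr0081236, −0.69 for FBtr0073543, −0.66 for FBtr0114583 and −0.60 for FBtr0081051. FBtr0072726, at −1.16, and FBtr0074444, at −0.59, did not pass.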

How the results depend on the processing

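The number of members depended most on the settings. It was 62 as reported, 41 with arrays centred on their medians (35 shared), 101 with group means in place of medians (52 shared) and 33 with a brightness minimum of 9 (33 shared). It was 52 with quantile normalization (41 shared), 86 with the median over probes (36 shared) and 54 without the 2 arrays that stand apart (43 shared). Leaving out 1 array at a time gave 49 to 76. Centring moved the median diet difference without RU486 over all transcripts from −0.07 to −0.19 log2. For the 62 members, leaving out 1 array gave 62 to 62 calls for diet without RU486, 45 to 57 for diet with RU486, 46 to 58 for RU486 on DR, 1 to 4 for RU486 on AL and 39 to 53 for the interaction. For the 14 named members, neither the RU486 difference on DR nor the interaction reversed its direction under the alternatives run. FBtr0083702 lost its call for RU486 on DR under 12 alternatives, with adjusted p between 0.0502 and 0.211 in limma and differences of −0.49 to −0.29 log2. Interaction calls were lost for FBtr0083702 under 4 alternatives (adjusted p 0.0503 to 0.0593 in limma), for FBtr0081051 under 1 (0.0917) and for FBtr0114583 under 1 (0.0587). FBtr0074444 gained a call for the interaction under 2 (0.00586 to 0.0175) and for RU486 on DR under 3 (0.0102 to 0.0330). Over 36 pairs of pools with equal numbers in different groups, r of the deviations was −0.31 to 0.25, and 6 were above 0.1. Without values for pools of unlike number, these do not settle whether pool numbers pair the samples. With the pool number as a replicate block, 53 members were called lower with RU486 on DR and 48 for the interaction. Signal near background limits the AL levels of 13 members.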
